A study of Mus musculus with 16 samples.

Results

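Striatum of R6/2 x DREAM+/- mice, the crossed animals, was compared with striatum of wild-type mice across all genes on the array, to see which transcripts still departed from wild type when the Huntington's disease transgene was carried on a background with 1 disrupted allele of DREAM. The comparison took the 4 arrays titled as R6/2 x DREAM+/- and the 4 titled as wild type, 8 of the 16 arrays in the series, and the effect is the difference of the group means of log2 levels, crossed minus wild type. The other 8 arrays, 4 from R6/2 and 4 from DREAM+/- mice, entered the statistical model and are used for values set beside the main difference. All mice were of strain B6xCBA. The crossed group carries both the R6/2 transgene and 1 knockout allele of DREAM, and the wild-type group carries neither. Per the labels' protocols, DREAM knockout mice were bred with R6/2 mice to obtain the crossed animals, and the R6 mice came from Jackson laboratories. The labels used here state neither the age nor the sex of the mice, nor whether tissue was pooled. The labels state 4 biological replicates for each genotype, and p-values measure the spread between these samples.

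Huntington's disease is caused by an expanded CAG repeat in huntingtin. R6/2 mice carry the first exon of the human gene with a long repeat under the human huntingtin promoter, in addition to their own intact copies, and become ill early. The medium spiny neurons of the striatum, which use GABA and make up most of its neurons, lose transcripts of their dopamine, opioid and cannabinoid signalling genes in such models before they die. DREAM, also called calsenilin or KChIP3 and encoded by Kcnip3, is a calcium-binding protein that represses transcription at DRE sites when calcium is low, binds the ATF6 stress sensor, and is also an accessory subunit of Kv4 potassium channels. The RNA was taken from whole striatum, although the labels name striatal neurons as the cell type, so in all that follows fewer cells of a type and less RNA per cell cannot be told apart.

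The arrays were Affymetrix mouse expression arrays, read in 1 colour, and 13011 genes passed the brightness filter and were tested. Correlations between replicates lay between 0.990 and 0.997 over these genes, and the 4 arrays per group limit the precision. Markers of medium spiny neurons were bright on every array, with a mean level of 41 genes between 11.50 and 11.59 (log2) in wild type and between 10.68 and 11.04 in the crossed group. Crossed replicate 3 stood apart from the other 3 crossed arrays. It lay at 3.40 on the second principal component where the others lay between 12.7 and 13.2, and at -15.9 on the third where the wild-type arrays lay between -4.87 and 10.6. Xist, the transcript of the silenced X chromosome, read 11.47 to 11.84 in wild type and 11.63 to 12.16 in the crossed group, while the Y-linked gene Eif2s3y gave 6.16, 6.46, 7.80 and 7.55 on the wild-type arrays and 7.34, 7.39, 6.23 and 7.42 on the crossed arrays. R6/2 replicate 1 read 6.49 for Xist and 8.91 for Eif2s3y, where every other array read above 11 for Xist, and without it 3377 genes were called against wild type in place of 3472. The DREAM+/- arrays read 11.04 to 11.49 for Xist and 7.51 to 8.05 for Eif2s3y. Whether single samples held tissue of both sexes was not tested. The part of these sex-linked differences in the results was not tested beyond a fit with Y-linked levels as a covariate, which called 3547 genes.

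Kcnip3, the gene disrupted, was read first. Its brighter probe set gave 9.41, 9.89, 9.51 and 9.86 (log2) on the 4 wild-type arrays and 7.67, 7.43, 7.65 and 7.49 in crossed replicates 1 to 4. No crossed array reached the wild-type range, and the crossed level was 23.2% of wild type. The difference was -2.11 (95% interval -2.30 to -1.91, limma adjusted p = 3.12e-10). The dimmer probe set read 8.22 to 8.83 in wild type and 5.24 to 5.57 in the crossed group, where it lay under the brightness filter of 5.944, at 11.4% of the wild-type level. On the arrays labelled DREAM+/- the probe sets stood at 26.9% and 13.0% of wild type. These levels are lower than equal output from 1 intact allele would give. The genotypes are named here as labelled, and whether 1 or both alleles were disrupted cannot be told from the arrays. Kcnip3 stood at -1.90 in DREAM+/- and at -0.56 in R6/2 against the same wild-type arrays, and the crossed level was 1.55 below that of R6/2 (adjusted p = 2.45e-08). Which exons the knockout allele lacks could not be read from the labels, and a probe set that lies in the remaining exons says nothing of the genotype.

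**Figure D1:**
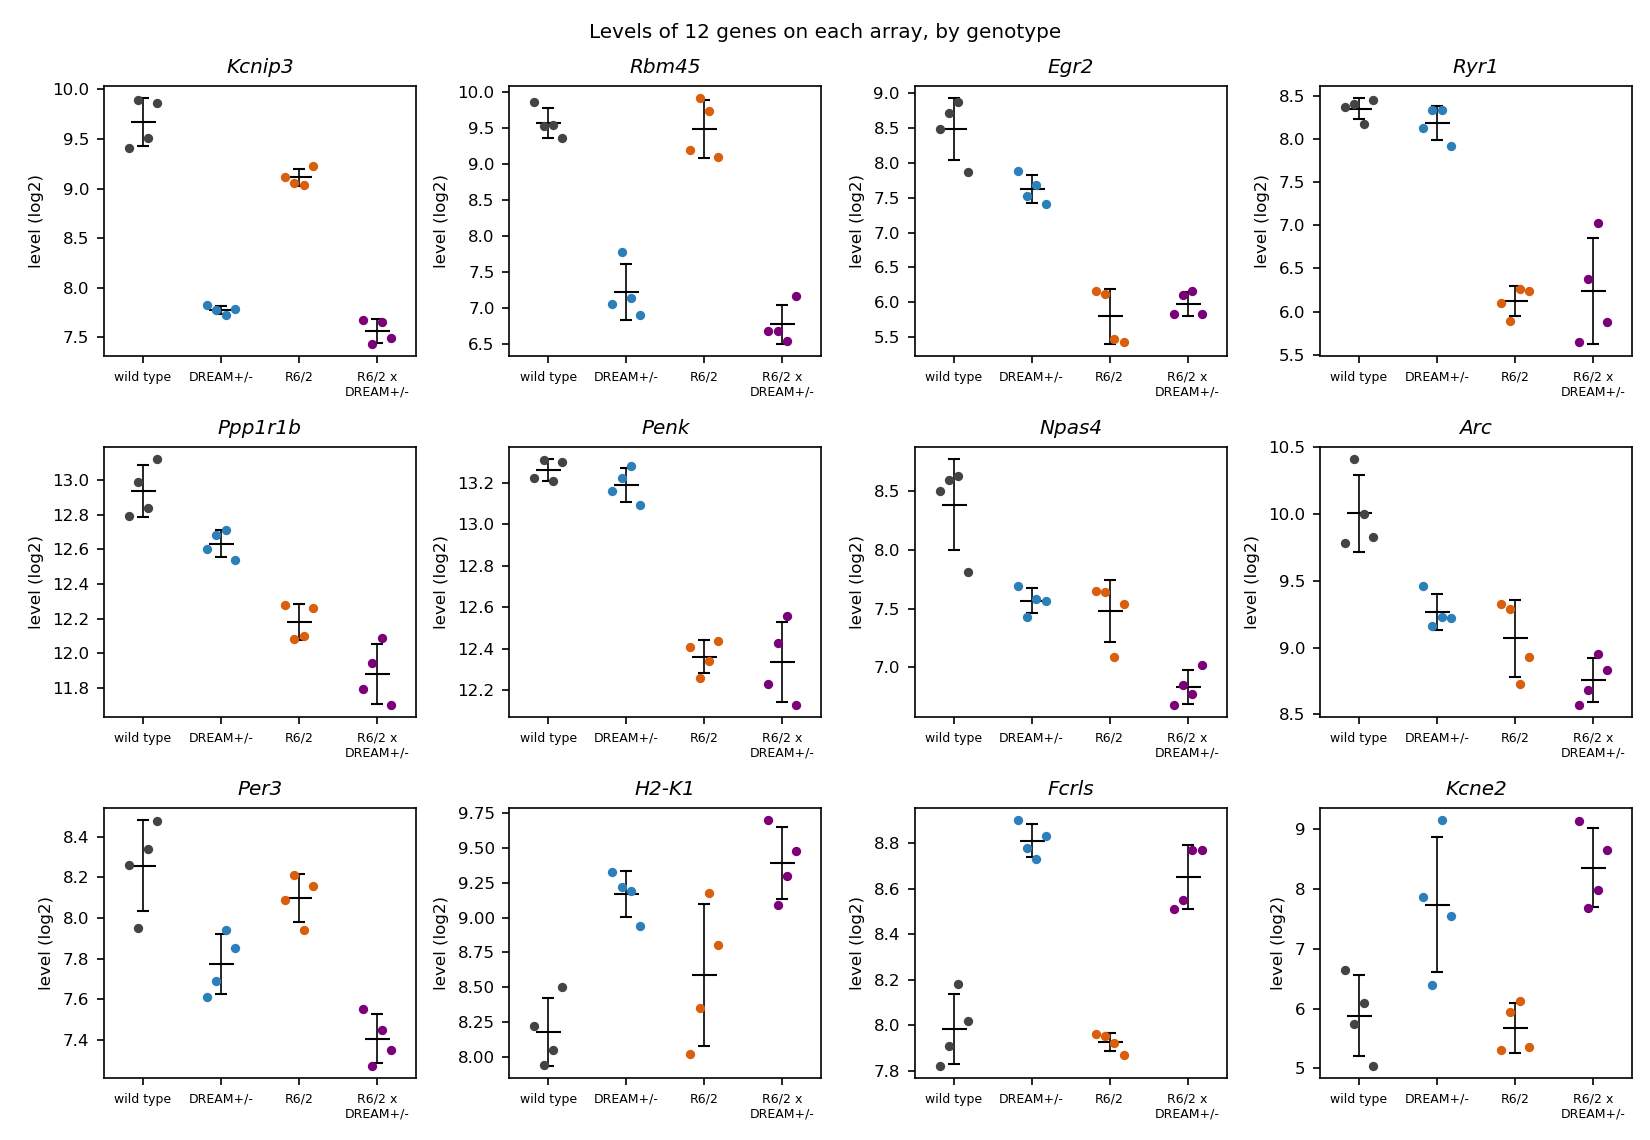
Level (log2) of 12 genes on each of the 16 arrays, by genotype, with points for single arrays and bars for the mean and SD (n = 4). For all 12 the crossed arrays do not overlap the wild-type arrays, and Kcnip3, Rbm45, Fcrls and Kcne2 in the crossed group lie near DREAM+/- while Egr2, Ryr1 and Penk lie near R6/2.

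Against wild type, 3472 of 13011 genes changed in the crossed striatum (26.7% called at a limma adjusted p under 0.05). Of these, 1505 were higher (11.6% of genes tested) and 1967 lower (15.1%). These shares are the background for the list counts below. The median difference over all genes was -0.0025, that of the genes called higher 0.26 and that of the genes called lower -0.325. Large differences were few and leaned downward. At least 1.5-fold differences numbered 114 higher and 290 lower, and at least 2-fold differences 31 higher and 49 lower. The 4 crossed and 4 wild-type values did not overlap for 2659 genes (20.4%), of which 2368 were also called. Without crossed replicate 3 the fit called 3981 genes, 1498 higher and 2483 lower. A fit on the 8 arrays of the 2 groups alone called 2197. With every array shifted to a common median, 1943 genes were higher and 1753 lower.

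**Figure D2:**
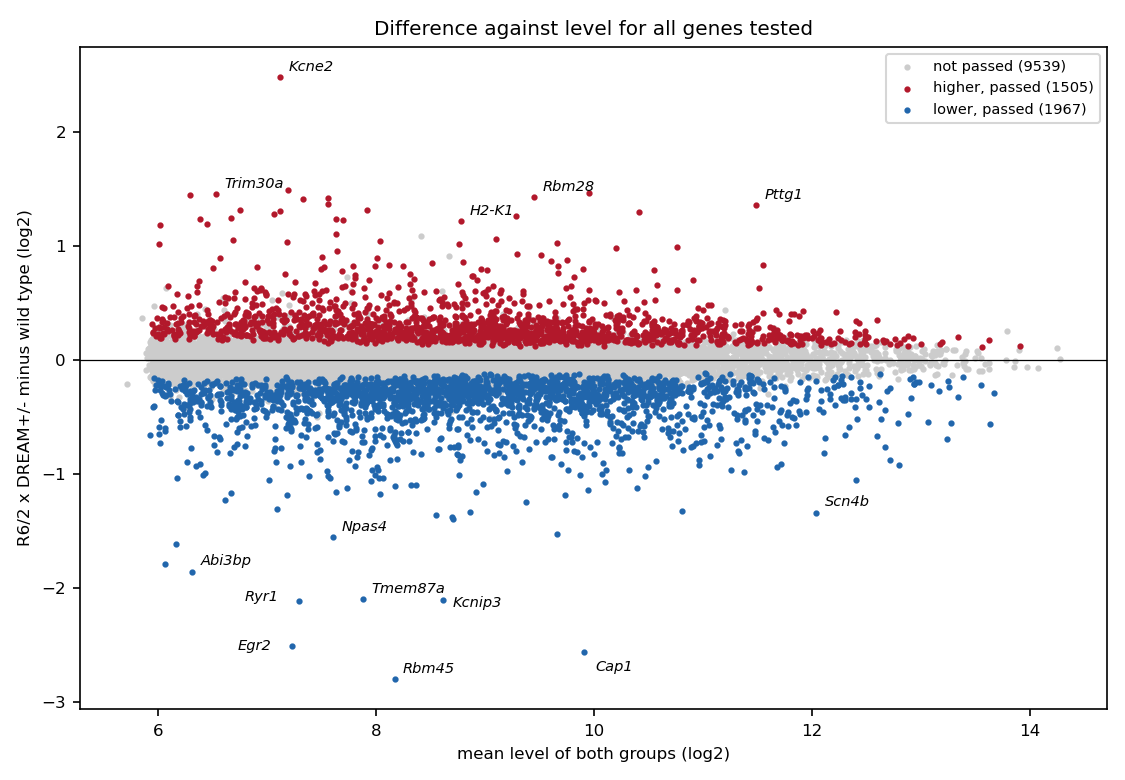
Difference between the crossed and wild-type group means (log2) against the mean level of both groups (log2) for the 13011 genes tested, one point per gene, coloured by whether the gene passed at an adjusted p under 0.05. The labelled genes reach from -2.80 for Rbm45 to 2.48 for Kcne2, and most passed genes lie within 1 log2 unit of 0.

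Among the genes called with no overlap, Rbm45, an RNA-binding protein, had the lowest difference. It read 9.86, 9.53, 9.54 and 9.36 in wild type and 6.69, 6.69, 6.55 and 7.17 in the crossed group, a fall to 14.4% of the wild-type level (difference -2.80, 95% interval -3.21 to -2.38, adjusted p = 6.39e-08). Every crossed array lay more than 2 log2 units below every wild-type array. Cap1, an actin-regulating protein, read 11.03, 10.99, 11.50 and 11.27 in wild type and 9.61, 9.33, 6.89 and 8.70 in the crossed group. Its difference of -2.57 was the most uneven of the large ones, with replicate 3 lowest, and became -1.98 without that array. Tmem87a fell by 2.10 and Rcn1, a calcium-binding protein of the endoplasmic reticulum, by 1.53. Rbm45, Cap1, Tmem87a, Kcnip3 and Rcn1 were low in DREAM+/- too, at -2.35, -2.06, -2.26, -1.90 and -1.11 against the same wild-type arrays, and all but Kcnip3 and Rcn1 lay between -0.17 and -0.08 in R6/2. Kcnip3, Rbm45, Tmem87a and Rcn1, 4 of the 15 lowest genes, are on chromosome 2 (Kcnip3 is the gene disrupted), which holds 1041 of the genes tested (8.0%), and none of the 15 highest genes is on it.

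A second set among the 15 lowest was also far below wild type in R6/2. Egr2, an activity-regulated zinc finger transcription factor, read 8.49, 8.72, 8.87 and 7.87 in wild type and 5.83, 6.10, 6.16 and 5.83 in the crossed group (difference -2.51, 95% interval -2.92 to -2.10, adjusted p = 2.12e-07). The crossed values lay close to the brightness filter, the R6/2 mean of 5.80 lay under it, and no crossed value reached the lowest wild-type value. Ryr1, a calcium release channel of the endoplasmic reticulum, read 8.37, 8.40, 8.17 and 8.45 in wild type and 5.65, 6.38, 7.03 and 5.88 in the crossed group (difference -2.11). The crossed arrays were spread over more than 1 log2 unit, with replicate 3 highest and still below wild type. Abi3bp, an extracellular matrix protein, fell by 1.86. Crh, the corticotropin-releasing hormone, fell by 1.79, Gpx6, a glutathione peroxidase, by 1.61 and Ddit4l, an inhibitor of mTOR signalling, by 1.40. The crossed means of Abi3bp (5.39), Crh (5.17) and Gpx6 (5.36) were below the brightness filter, and so were their R6/2 means, so these genes were tested through the brighter groups and the size of their falls, and their differences from R6/2, rest on dim signals. Scn4b, the sodium channel beta subunit typical of striatal neurons, fell by 1.34 to 39.5% of wild type. In R6/2 against wild type, Egr2 stood at -2.69, Ryr1 at -2.23, Abi3bp at -2.50, Crh at -2.26, Gpx6 at -1.57, Ddit4l at -1.73 and Scn4b at -1.48. None of these 7 passed in the crossed group against R6/2, where their differences lay between -0.04 for Gpx6 and 0.64 for Abi3bp.

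Npas4, Rbp4 and Prima1 complete the 15 lowest. Npas4, a neuronal transcription factor induced by calcium entry, read 8.50, 8.60, 8.63 and 7.81 in wild type and 6.68, 6.85, 6.77 and 7.02 in the crossed group, a fall of 1.56. It was lower in each single genotype, at -0.91 in R6/2 and -0.82 in DREAM+/-, and lower again in the crossed group than in R6/2 (difference -0.65, adjusted p = 0.0115). Rbp4, the plasma carrier of retinol, fell by 1.38 and Prima1, the membrane anchor of acetylcholinesterase, by 1.36, and Rbp4 also lay below R6/2 (difference -0.35, adjusted p = 0.0118).

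The 15 highest genes ran from 1.23 to 2.48. Kcne2, a potassium channel subunit abundant in choroid plexus, read 6.65, 5.75, 6.09 and 5.04 in wild type and 9.13, 7.68, 7.98 and 8.65 in the crossed group (difference 2.48, 95% interval 1.53 to 3.43, adjusted p = 0.000628). The groups did not overlap, and each spread over more than 1 log2 unit. Trim30a and Trim34a, members of a family of interferon-inducible ubiquitin ligases, rose by 1.46 and 1.44. Trim34a was higher on 1 of its 2 probe sets, the one tested, and Trim30a on both. The wild-type means of Kcne2 (5.88), Trim30a (5.80), Trim34a (5.58) and AW495222 (5.77) lay under the brightness filter of 5.944, so these genes were tested through the groups where they are brighter, and the size of their differences rests on dim wild-type signals. Trim30a read 5.61 to 6.26 in wild type and 7.16 to 7.37 in the crossed group, and its DREAM+/- difference was 0.83. Rbm28, a nucleolar protein, rose by 1.42, Acer3, an alkaline ceramidase, by 1.42, Pttg1, the securin of chromosome separation, by 1.36, Hpgd, which inactivates prostaglandins, by 1.31, Ang, a secreted ribonuclease, by 1.28 and Ggcx, the vitamin K-dependent carboxylase, by 1.25. The other 6 were Tmem267 (1.31) and probe sets annotated to G530011O06Rik (1.49), Mir1931 (1.41), 2610507I01Rik (1.37), 4933439C10Rik (1.23) and AW495222 (1.23). For Mir1931 the value belongs to a probe set annotated to that locus, and the mature miRNA was not measured. Acer3 was higher on 3 of its 4 probe sets.

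Each of these 15 was also higher in DREAM+/- against the same wild-type arrays, from 0.62 for AW495222 to 1.86 for Kcne2 (15 passed, against 3.68% of all genes called and 1.60% called higher in that comparison). In R6/2 their differences ran from -1.04 for Tmem267 to 0.86 for AW495222, with 7 passed. Each was higher in the crossed group than in R6/2, by 0.37 to 2.68, and with each of the 16 arrays left out in turn the AW495222 call alone was lost, in 9. With single DREAM+/- arrays left out, 280 to 315 of all genes were called in DREAM+/- in place of 479. For the 15 lowest, the DREAM+/- differences ran from -2.35 to 0.12 with 9 passed and the R6/2 differences from -2.69 to -0.08 with 12 passed. These comparisons share the wild-type or crossed arrays and are therefore not independent of the choice of the 30 genes.

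**Figure D3:**
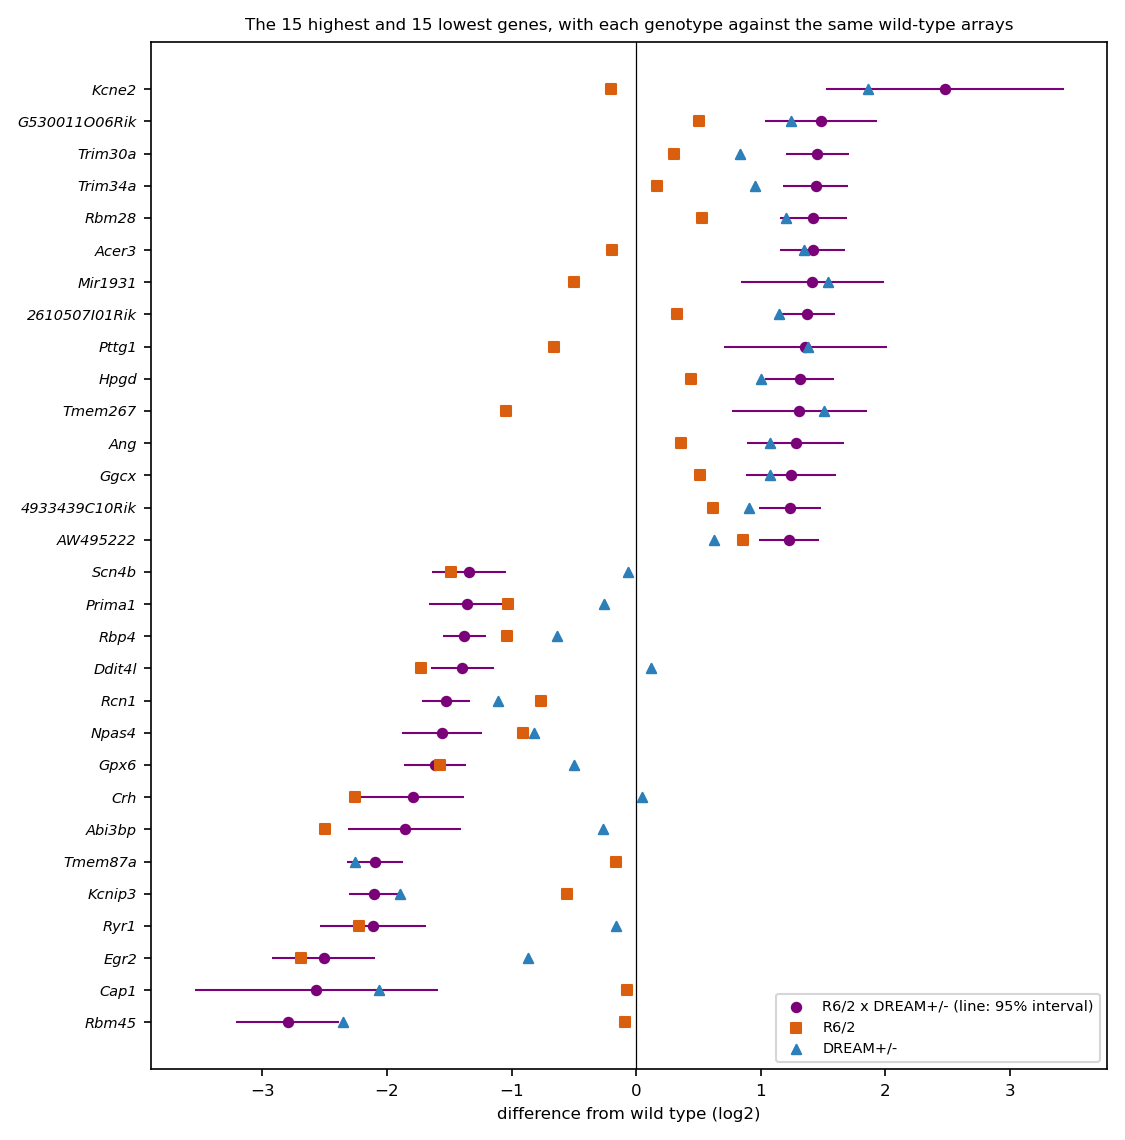
Difference from wild type (log2) for the 15 highest and 15 lowest genes of the crossed group, with the 95% interval as a line, beside the R6/2 and DREAM+/- differences from the same 4 wild-type arrays. The DREAM+/- values of the 15 highest genes lie between 0.62 and 1.86, and among the lowest genes Ryr1, Egr2, Abi3bp, Crh, Gpx6, Ddit4l and Scn4b have R6/2 values between -2.69 and -1.48.

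Medium spiny neuron genes were lower almost throughout. Of 41 members tested, 37 fell, none rose and 4 did not pass, with a median difference of -0.69 against -0.0025 for all genes. The groups did not overlap for 31 of the 41. Over all genes tested, 15.1% were called lower and 20.4% did not overlap. Ppp1r1b, which encodes DARPP-32, the phosphatase inhibitor that carries dopamine signals, read 12.79, 12.99, 12.84 and 13.12 in wild type and 11.79, 11.94, 12.09 and 11.70 in the crossed group, 48.1% of wild type (difference -1.06, 95% interval -1.24 to -0.87, adjusted p = 2.88e-07). Rgs9, which speeds the shut-off of dopamine receptor signalling, fell by 0.99, Rasgrp2, a Rap activator, by 1.13, Arpp19, a phosphatase inhibitor, by 0.88, Cnr1, the cannabinoid receptor, by 0.94 and Pde10a, the striatal cyclic nucleotide phosphodiesterase, by 0.52. In R6/2 against wild type, where 25.4% of all genes were called (13.5% higher and 11.9% lower), 38 of the 41 were lower and the median was -0.67. Against R6/2, 4 of the 41 were higher and 4 lower in the crossed group (5.33% of all genes were called higher there and 8.65% lower, 14.0% in all). Ppp1r1b was lower in the crossed group than in R6/2 by 0.30 (adjusted p = 0.0288) and Pdyn by 0.34 (adjusted p = 0.0344), calls lost with 4 and 6 of the 16 arrays left out in turn. Over the same leave-outs 2 to 6 of the 41 were higher and 0 to 12 lower, and 1067 to 2708 of all genes were called, the most without crossed replicate 3. Rgs4, another regulator of G-protein signalling, fell by 0.67 against wild type and stood at -1.01 in R6/2. Rgs4 was higher in the crossed group than in R6/2 by 0.35 (adjusted p = 0.00833), a call kept with each of the 16 arrays left out.

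The neuropeptides and receptors that separate the 2 output pathways differed in size. In the indirect pathway, whose neurons project to the external pallidum, Penk, the enkephalin precursor, read 13.22, 13.31, 13.21 and 13.30 in wild type and 12.23, 12.43, 12.56 and 12.13 in the crossed group (difference -0.92, 95% interval -1.09 to -0.76, adjusted p = 3.56e-07), 52.8% of wild type. Gpr6, a receptor of these neurons, fell by 0.85. Drd2, the dopamine D2 receptor, fell by 0.97, with crossed replicate 3 at 10.51 inside the wild-type range of 10.49 to 11.13 and the others at 9.47 to 9.73. In the direct pathway, Pdyn, the dynorphin precursor, read 8.51, 8.53, 8.52 and 8.45 in wild type and 7.18, 7.54, 7.68 and 7.56 in the crossed group (difference -1.01, adjusted p = 1.85e-06). Drd1, the dopamine D1 receptor, fell by 0.53. Tac1, the substance P precursor, read 12.54 to 12.67 in wild type and 12.51 to 12.70 in the crossed group, a difference of 0.03 (95% interval -0.08 to 0.14) that did not pass. Of the 7 indirect pathway genes tested 4 fell, and of the 8 direct pathway genes 3. Adora2a, an adenosine receptor, had no probe set annotated to it alone and was not tested.

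Striatal interneuron genes were lower in 12 of 19 tested and higher in 1, with a median of -0.30. The 1 higher gene was Elavl2 (0.21), and none was higher without crossed replicate 3, crossed replicate 4, wild-type replicate 3 or wild-type replicate 4. Npy, the neuropeptide of the somatostatin interneurons, fell by 0.53, Slc18a3, the vesicular acetylcholine transporter, by 0.59, Kit by 0.52 and Th, the rate-limiting enzyme of dopamine synthesis, by 0.43. Th read 6.90, 6.94, 6.94 and 7.19 in wild type and 6.42, 6.62, 6.73 and 6.47 in the crossed group. Th stood at -0.17 in R6/2, and the crossed group was lower than R6/2 by 0.26 (adjusted p = 0.0255), a call lost with 5 of the 16 arrays left out in turn. Against R6/2, 3 of the 19 were higher and Th alone lower, beside 5.33% and 8.65% of all genes. Without R6/2 replicate 1 these counts were 1 and 0.

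Activity-regulated immediate early genes formed the other large block of losses. These are genes that neurons switch on within minutes of calcium entry, through CREB and other factors bound near their promoters. Of 33 tested, 24 fell and none rose, with a median of -0.51, and in R6/2 27 were lower with a median of -0.64. In DREAM+/-, 9 were lower (2.08% of all genes called lower) with a median of -0.28. Arc, which regulates AMPA receptor uptake at synapses, read 9.78 to 10.41 in wild type and 8.57, 8.68, 8.95 and 8.83 in the crossed group (difference -1.25, 95% interval -1.54 to -0.95, adjusted p = 6.88e-06). All crossed arrays lay below all wild-type arrays. Arc stood at -0.94 in R6/2 and -0.74 in DREAM+/-. Nr4a1, an orphan nuclear receptor, read 10.87, 11.18, 11.18 and 10.67 in wild type and 9.93, 9.83, 10.04 and 10.04 in the crossed group (difference -1.02, adjusted p = 0.00378). Egr1 fell by 0.66, Homer1, a postsynaptic scaffold, by 0.47 and Dusp14, a dual-specificity phosphatase, by 1.01. Homer1 and Dusp14 were less low in the crossed group than in R6/2, by 0.17 and 0.34 (adjusted p = 0.0212 and 0.0462), calls lost with 3 and 9 of the 16 arrays left out in turn. Fos overlapped between the groups and its difference of -0.73 passed narrowly (adjusted p = 0.0452), a call lost in 12 of 20 alternative analyses.

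The promoters of 3 of these genes are shown because each carries copies of the short CRE motif, the letters TGACG or their reverse complement, to which CREB can bind. The sequences are the 250 bases before a RefSeq transcription start in GRCm38.p6, 5′ to 3′ on the gene's strand, with each motif in capitals.
Egr2 (chr10:67537619-67537868, plus strand, 1 of 5 listed starts): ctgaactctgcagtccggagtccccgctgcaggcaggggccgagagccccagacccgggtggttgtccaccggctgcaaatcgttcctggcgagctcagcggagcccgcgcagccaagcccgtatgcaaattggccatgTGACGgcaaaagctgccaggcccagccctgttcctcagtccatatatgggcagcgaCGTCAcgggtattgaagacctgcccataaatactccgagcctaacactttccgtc
Npas4 (chr19:4989972-4990221, minus strand): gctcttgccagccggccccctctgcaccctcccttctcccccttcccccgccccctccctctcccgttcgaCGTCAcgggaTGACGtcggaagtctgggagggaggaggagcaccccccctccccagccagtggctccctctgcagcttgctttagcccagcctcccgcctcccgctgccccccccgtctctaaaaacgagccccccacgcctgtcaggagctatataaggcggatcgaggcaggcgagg
Nr4a1 (chr15:101266596-101266845, plus strand): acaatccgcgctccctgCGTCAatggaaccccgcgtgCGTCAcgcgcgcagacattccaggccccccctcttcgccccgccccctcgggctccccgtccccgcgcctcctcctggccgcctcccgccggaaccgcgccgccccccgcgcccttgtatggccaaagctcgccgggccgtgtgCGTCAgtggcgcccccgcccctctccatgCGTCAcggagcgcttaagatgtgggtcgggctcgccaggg
The Egr2 and Npas4 windows hold 2 short motifs each and the Nr4a1 window 4. The Egr2 start shown was picked from those listed for its number of short motifs. On either strand, the short motif was found in 52.8% of 36 promoters of 24 immediate early genes, in 25.6% of 13504 promoters of tested genes and in 17.8% of all 32851 promoters in the table. Among genes called lower in the crossed group 22.9% of promoters held it, and among genes called higher 25.7%. In the medium spiny neuron list 17% of 53 promoters held it. The short motif was chosen after the sequences were seen. The full palindrome TGACGTCA, which contains it, was in 2 of the 36 immediate early promoters (5.56%). The palindrome was in 2.44% of promoters of tested genes and 1.55% of all promoters. Among genes called lower 2.24% of promoters held the palindrome, and among genes called higher 3.1%. The EGR site GCGGGGGCG was in 6.39% of promoters of genes called lower, 4.05% of genes called higher and 4.80% of tested genes. The EGR site was in 1.89% of the 53 medium spiny neuron promoters and 8.33% of the 36 immediate early promoters. The DRE core GTCA, which the CRE palindrome also contains, was in 70.8% of 24 promoters of reported DREAM target genes. The DRE core was in 76.1% of promoters of tested genes and in 80.2% of all promoters. A match is a description of the letters in the window and shows no binding.

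DREAM's own partners and reported targets were mostly lower too. Of 10 genes of the Kv4 potassium channel complex, 7 fell and none rose, with a median of -0.27. Beside Kcnip3, Kcnip2, the main Kv4 partner in striatum, read 11.36, 11.44, 11.26 and 11.55 in wild type and 10.32, 10.54, 10.82 and 10.42 in the crossed group (difference -0.88, adjusted p = 2.33e-06). Kcnip1 fell by 0.50 and Kcnip4 by 0.24, and both were lower in the crossed group than in R6/2, by 0.33 and 0.20 (adjusted p = 0.0186 and 0.0270), calls lost with 2 and 3 of the 16 arrays left out in turn. Kcnab1, an auxiliary subunit, fell by 0.59. Kcnd2, the Kv4.2 pore subunit, differed by -0.20 (adjusted p = 0.0198), a call lost in 5 of 20 alternatives. Among 18 reported target genes of DREAM, 13 were lower and 1 was higher, with a median of -0.50 (13 lower and 1 higher in R6/2, median -0.37). This list shares Npas4, Arc, Nr4a1, Fos, Fosl2, Crem, Bdnf and Homer1 with the immediate early list and Pdyn with the medium spiny neuron list, so the counts are not separate evidence. Other lists share members too. Ryr1, Hpca and Pde1b are medium spiny neuron genes that also count in the calcium or G-protein lists below. Bdnf and Per1 are immediate early genes that also count in the neurotrophin and clock lists. Hrk, a pro-apoptotic BH3 protein, read 8.61, 8.74, 8.42 and 8.76 in wild type and 7.48, 7.80, 8.15 and 7.63 in the crossed group (difference -0.87), with replicate 3 nearest wild type. Slc8a3, the sodium-calcium exchanger NCX3, fell by 0.25, and Gap43, a growth cone protein named after its values were seen as the 1 member that rose, was higher by 0.34.

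Ion channel and calcium genes leaned downward. Of 37 calcium handling genes, 16 fell and 2 rose, with a median of -0.18, and 1 was higher without any 1 of crossed replicates 2 and 3 or wild-type replicates 1, 2 and 3. Besides Ryr1, Hpca, the neuronal calcium sensor hippocalcin, fell by 0.56, Camkk2, an upstream kinase of calmodulin signalling, by 0.53, Atp2a2, the calcium pump of the endoplasmic reticulum, by 0.33 and Ppp3ca, the catalytic subunit of calcineurin, by 0.32. Of 27 sodium and potassium channel genes, 15 fell and 1 rose, with a median of -0.28. Kcnh3 fell by 0.72, Kcnk2 by 0.46, Kcnt1 by 0.40 and Kcnq3, a subunit of the M current, by 0.38.

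Signalling and synaptic lists followed. Of 33 genes of cyclic nucleotide and G-protein signalling, 17 fell and 1 rose (median -0.24), with 2 higher without crossed replicate 2, crossed replicate 3 or wild-type replicate 3. Rgs14, a regulator of G-protein signalling, read 10.36, 10.58, 10.41 and 10.74 in wild type and 9.22, 9.43, 9.57 and 9.30 in the crossed group, 45.3% of wild type, and the groups did not overlap. Pde1b, a calcium-dependent phosphodiesterase, fell by 0.76 and Gnb5, the partner of Rgs9, by 0.53. Of 11 genes of the neurotrophin system, 9 fell and none rose (median -0.29). Bdnf, the survival factor that reaches the striatum mainly from cortex, read 6.78 to 7.11 in wild type and 6.59 to 6.73 in the crossed group (difference -0.29), a call lost when a gene's probe sets were averaged. Its receptor Ntrk2, whose call was lost in the same way, fell by 0.28, Ntrk3 by 0.31, Sorcs2 by 0.73 and Ngfr by 0.39. Ngfr was lower in the crossed group than in R6/2 by 0.26 (adjusted p = 0.0297), a call lost with 5 of the 16 arrays left out in turn. Of the 11 genes, 1 was higher than in R6/2 and Ngfr alone lower.

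Of 23 glutamate receptor and postsynaptic genes, 9 fell and none rose (median -0.14). Shank3, a postsynaptic scaffold, fell by 0.76, Grm4, a presynaptic metabotropic receptor, by 0.70, Cacng3, an AMPA receptor auxiliary subunit, by 0.69 and Grik2, a kainate receptor subunit, by 0.63. Of 16 GABA system genes, 5 fell and 2 rose (median -0.07). Gabrd, the delta subunit of extrasynaptic GABA-A receptors, read 10.55, 10.65, 10.61 and 10.72 in wild type and 9.44, 9.57, 9.92 and 9.33 in the crossed group (difference -1.07, adjusted p = 6.96e-07). Gabra5 and Gabrb2 were the 2 that rose, by 0.26 and 0.34, and Gabrb2 lost its call when probe sets were averaged. Of 26 presynaptic release genes, 10 fell and 2 rose (median -0.10), with 1 higher without any 1 of crossed replicates 2 and 4 or wild-type replicates 2, 3 and 4. The counts of lower genes moved with single arrays in both lists. In all, 3 GABA system genes were lower without crossed replicate 2, crossed replicate 4 or wild-type replicate 1, and 6 presynaptic genes without any 1 of crossed replicates 1, 2 and 4 or wild-type replicates 1, 2 and 4.

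**Figure D4:**
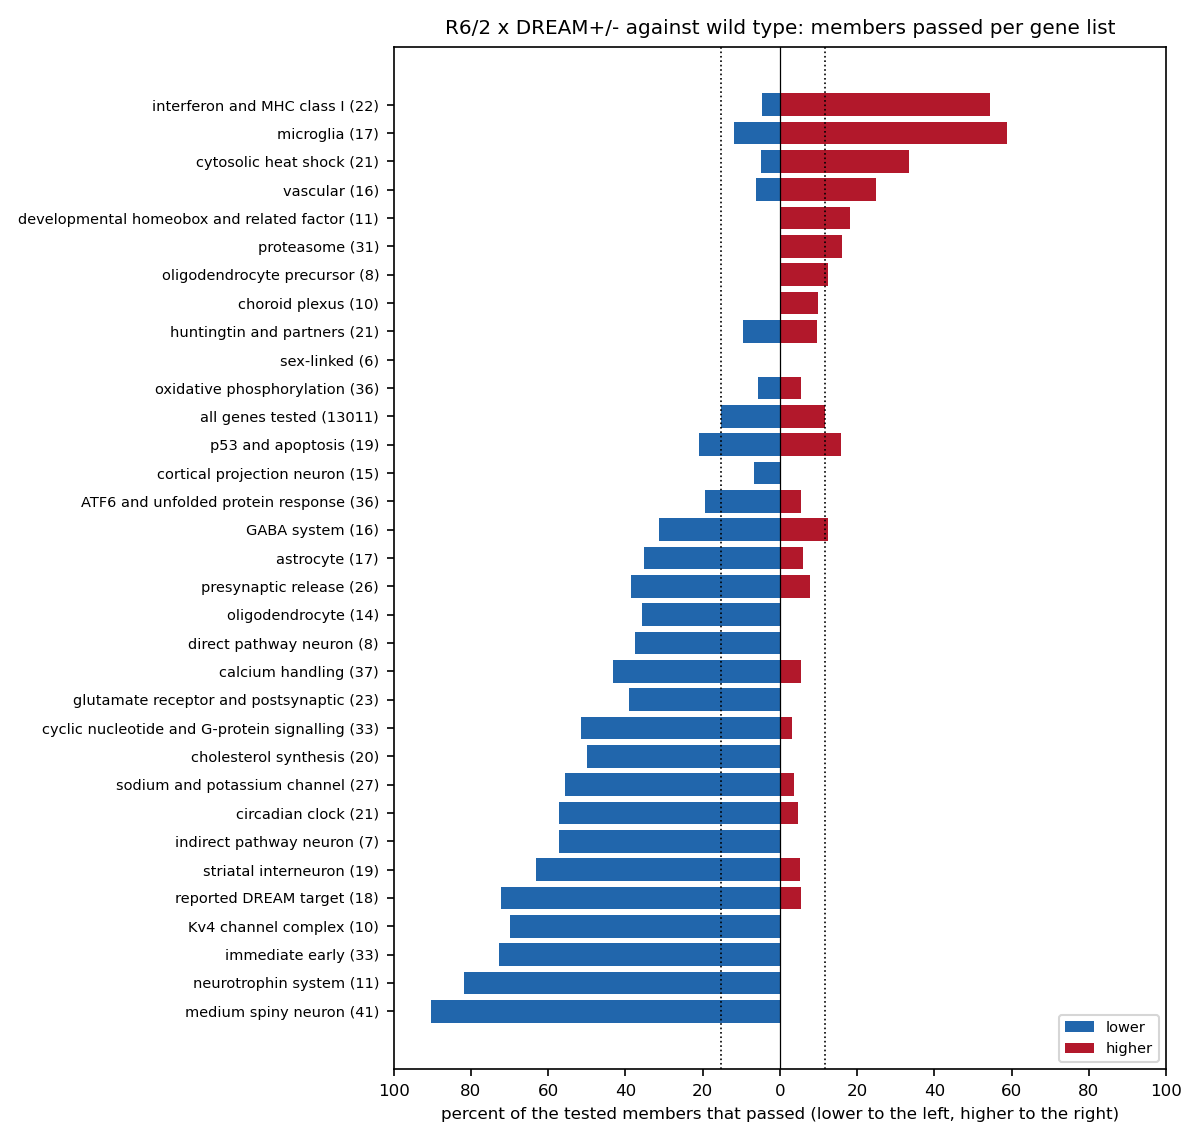
Percent of the tested members of each list that passed in the crossed group against wild type, lower to the left and higher to the right, with the number tested in brackets and dotted lines at the shares for all genes tested (15.1% lower, 11.6% higher). Medium spiny neuron, neurotrophin and immediate early lists reach farthest to the left, and the microglia and the interferon and MHC class I lists farthest to the right.

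Circadian clock genes were lower in 12 of 21 tested and higher in 1, with a median of -0.27. Per3, a period gene, read 8.26, 7.95, 8.34 and 8.48 in wild type and 7.55, 7.27, 7.45 and 7.35 in the crossed group (difference -0.85, 95% interval -1.06 to -0.64, adjusted p = 1.12e-05). Every crossed array lay below every wild-type array. Over the alternative analyses the Per3 difference ran from -0.955 to -0.317, with the call kept. Per3 stood at -0.16 in R6/2 without passing and at -0.48 in DREAM+/- (adjusted p = 0.00999), and the crossed group was lower than R6/2 by 0.70 (adjusted p = 0.000397). Dbp, an output factor of the clock, fell by 0.97, Npas2, a partner of BMAL1, by 0.76 and Bhlhe40, a clock repressor, by 0.48, with R6/2 values of -0.78, -0.88 and -0.58. Ciart, a repressor of the clock, read 8.23, 8.32, 8.22 and 8.31 in wild type and 7.24, 7.57, 7.38 and 7.18 in the crossed group (difference -0.93, adjusted p = 8.75e-06). The labels used here do not state the time of day of dissection. The Ciart promoter is shown because it holds the most copies of the E-box CACGTG, the site of the clock activators, among the clock genes, with the 3 E-boxes in capitals in the 250 bases before the RefSeq start in GRCm38.p6.
Ciart (chr3:95882229-95882478, minus strand): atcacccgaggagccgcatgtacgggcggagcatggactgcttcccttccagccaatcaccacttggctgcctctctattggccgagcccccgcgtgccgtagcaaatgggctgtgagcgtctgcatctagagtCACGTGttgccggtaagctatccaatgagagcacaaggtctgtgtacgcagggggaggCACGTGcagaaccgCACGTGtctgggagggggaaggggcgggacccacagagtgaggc
On either strand, the E-box was in 22.2% of 27 clock gene promoters, in 8.12% of promoters of tested genes and in 6.02% of all promoters. It was in 7.79% of promoters of genes called lower and 8.54% of those called higher.

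Sterol synthesis genes were lower in 10 of 20 tested and none rose, with a median of -0.21. Msmo1, a sterol oxidase, read 10.67, 10.49, 10.62 and 10.59 in wild type and 10.10, 10.26, 10.10 and 10.05 in the crossed group (difference -0.47). Idi1, an isomerase of isoprenoid synthesis, fell by 0.36, Dhcr7, the last enzyme of cholesterol synthesis, by 0.52 and Srebf2, the regulator of the pathway, by 0.46. In the crossed group against R6/2, 8 of the 20 were higher and 2 lower, with 4 to 8 higher and 0 to 2 lower when each of the 16 arrays was left out. Msmo1 and Idi1 were higher than in R6/2 by 0.19 and 0.26 (adjusted p = 0.0347 and 0.00989), and Dhcr7 was lower by 0.33 (adjusted p = 0.0254). The Msmo1 call was lost with 5 of those arrays left out, the Dhcr7 call with 4 and the Idi1 call with none. The SRE-1 element was in none of the promoters of these genes, in 0.0518% of promoters of tested genes and in 0.0731% of all promoters.

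ATF6 serves 1 arm of the unfolded protein response, which cells mount when proteins misfold in the endoplasmic reticulum. Of 36 genes of this response tested, 7 fell and 2 rose, with a median of -0.04. That is 25.0% called, beside 26.7% of all genes, and without crossed replicate 2 only 4 were lower. Atf6 read 9.07, 9.24, 9.23 and 9.33 in wild type and 8.74, 8.89, 9.15 and 8.62 in the crossed group (difference -0.37, 95% interval -0.57 to -0.16, adjusted p = 0.0106). Crossed replicate 3 overlapped wild type. Atf6 stood at -0.51 in R6/2 and 0.18 in DREAM+/-. Atf6b, its paralog, fell by 0.36, Mbtps1, the protease that releases active ATF6, by 0.25, and Edem1, which helps to clear misfolded glycoproteins, rose by 0.30. Hspa5, the chaperone BiP and a classical ATF6 target, read 12.03 to 12.32 in wild type and 12.06 to 12.24 in the crossed group, a difference of 0.01 (95% interval -0.15 to 0.16). Xbp1 differed by -0.13 and did not pass. Ddit3, the stress factor CHOP, fell by 0.29 on its brightest probe set and stood at 0.0088 when its 2 probe sets were averaged. The ERSE element was in 27.3% of the 33 promoters of this list, in 0.104% of promoters of tested genes and in 0.113% of all promoters.

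Of 21 cytosolic heat shock genes, 7 rose and 1 fell, with Ahsa1, a co-chaperone of HSP90, higher by 0.26 and Dnajb5 lower by 0.42, but without crossed replicate 2 only 3 were higher and without wild-type replicate 1 only 4, and 3 were lower without crossed replicate 4 and 2 without crossed replicate 3. Of 31 proteasome genes, 5 rose and none fell, from 0.13 for Psma1 to 0.21 for Psma3, with counts of 2 without crossed replicate 2 and 3 without crossed replicate 4, wild-type replicate 2 or wild-type replicate 4. Of 36 oxidative phosphorylation genes, 2 rose and 2 fell, with a median of -0.0087, and each count became 1 when single arrays were left out. Calls made up 38.1% of the heat shock, 16.1% of the proteasome and 11.1% of the oxidative phosphorylation genes, beside 26.7% of all genes. Of 19 p53 and apoptosis genes, 3 rose and 4 fell (36.8% called). Without wild-type replicate 3, 5 were higher, and without crossed replicate 4 or wild-type replicate 2, 2 were lower. Bid, which links death receptors to mitochondria, read 6.66 to 6.75 in wild type and 7.20 to 7.38 in the crossed group (difference 0.57, adjusted p = 3.41e-05). Mcl1, a survival protein of the BCL2 family, rose by 0.31 and was also higher than in R6/2 by 0.31 (adjusted p = 0.00797), and its call against wild type was lost when probe sets were averaged. Of 21 genes for huntingtin and its partners, 2 rose and 2 fell (19% called). Without crossed replicate 3, 5 were lower, and there were counts of 1 in other leave-outs. Htt itself read 8.27 to 8.37 in wild type and 8.20 to 8.39 in the crossed group, a difference of 0.00 (95% interval -0.10 to 0.11). Of 11 developmental homeobox and related factors, 2 rose (18.2% called). Sfmbt2, a polycomb protein whose wild-type mean of 5.85 lay under the brightness filter, read 5.72, 5.87, 5.81 and 6.01 in wild type and 6.86, 6.93, 7.48 and 6.90 in the crossed group (difference 1.19, adjusted p = 9.91e-06). Sfmbt2 stood at 1.25 in R6/2 and 0.10 in DREAM+/-. Sox11, a factor of immature neurons, read 10.06, 10.25 and 10.16 in crossed replicates 1, 2 and 4 and 8.56 in replicate 3, below the lowest wild-type value of 8.57, and lost its call in 9 of 20 alternatives.

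Microglial genes rose as a list in the crossed striatum. Of 17 tested, 10 rose and 2 fell, with a median of 0.22 (12 of 17 had a positive difference), but the count was 6 without crossed replicate 1 and 6 without wild-type replicate 4. Fcrls, a receptor of resident microglia, read 7.82, 7.91, 8.18 and 8.02 in wild type and 8.51, 8.55, 8.77 and 8.77 in the crossed group (difference 0.67, 95% interval 0.51 to 0.83, adjusted p = 7.37e-06). Olfml3 read 8.55 to 8.75 in wild type and 9.11 to 9.31 in the crossed group (difference 0.53). C1qb, a chain of complement C1q, rose by 0.38. The groups did not overlap for these 3 genes. Cx3cr1, the fractalkine receptor, named after its values were seen, rose by 0.85, with wild-type replicates at 8.10, 8.16, 8.98 and 7.14. Cd68, a lysosomal marker of phagocytes, fell by 0.34 and Aif1, which encodes IBA1, by 0.34. Fcrls, Olfml3 and C1qb stood at 0.83, 0.55 and 0.41 in DREAM+/- and at -0.06, -0.04 and -0.17 in R6/2, and each was higher in the crossed group than in R6/2 (adjusted p = 1.65e-05, 9.87e-05 and 5.09e-05). In R6/2 1 of the 17 was higher and 2 were lower, and in DREAM+/- 5 were higher and none lower.

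Interferon-regulated and MHC class I genes were higher in 12 of 22 tested and lower in 1, with a median of 0.27. H2-K1, a classical class I heavy chain, read 8.22, 7.94, 8.05 and 8.50 in wild type and 9.70, 9.09, 9.30 and 9.48 in the crossed group, 2.32 times wild type (difference 1.22, 95% interval 0.81 to 1.62, adjusted p = 0.000193). Over the alternative analyses the H2-K1 difference ran from 0.68 to 1.32, with the call kept. B2m, the light chain of class I molecules, read 10.42 to 10.49 in wild type and 10.85 to 11.22 in the crossed group (difference 0.61). Ifit3, Ifi27 and Xaf1, which interferon induces, rose by 0.46, 0.52 and 0.37. Class I heavy chains are near-identical copies, and how the probes divide them was not tested. H2-K1 stood at 0.99 in DREAM+/- and 0.41 in R6/2, where it passed only without R6/2 replicate 1 (0.60, adjusted p = 0.0214), and Ifit3, Ifi27 and Xaf1 at -0.08, 0.07 and 0.03 in DREAM+/- and 0.64, 0.48 and 0.38 in R6/2. In R6/2, 13 of the 22 were higher and none lower, and in DREAM+/- 2 were higher and 1 lower.

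Markers of other cells that a striatal dissection can hold were mixed. Calls made up 41.2% of astrocyte, 35.7% of oligodendrocyte, 12.5% of oligodendrocyte precursor and 31.2% of vascular genes, beside 26.7% of all genes. Of 17 astrocyte genes, 6 fell and 1 rose. Ntsr2, a neurotensin receptor, fell by 0.48, Agt, angiotensinogen, by 0.38 and Aqp4, the water channel of astrocyte endfeet, by 0.33, a call lost when probe sets were averaged. Gfap, the intermediate filament of reactive astrocytes, read 8.01 to 8.31 in wild type and 8.25 to 8.62 in the crossed group (difference 0.33), and lost its call without crossed replicate 2, wild-type replicate 2 or wild-type replicate 3. Of 14 oligodendrocyte genes 5 fell and none rose. Ugt8a, which makes the myelin lipid galactosylceramide, fell by 0.44 and Mal by 0.31, and Mbp, myelin basic protein, differed by -0.07 and did not pass. Of 8 oligodendrocyte precursor genes, Olig1 alone passed, higher by 0.24. Of 16 vascular genes 4 rose and 1 fell, among them Kdr, the endothelial VEGF receptor, higher by 0.31 and Vwf, von Willebrand factor, higher by 0.57 from a wild-type mean of 5.89, under the brightness filter.

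Markers of cortical projection neurons were included because cortex overlies the striatum, and whether their levels follow dissected cortex or expression in striatal cells was not tested. The mean level of 15 such genes lay between 8.57 and 8.78 in wild type, between 8.45 and 8.75 in the crossed group and between 8.10 and 8.41 in R6/2. Against wild type 1 of the 15 fell in the crossed group, Ngef, which striatal neurons also express, by 0.58, and 8 were lower in R6/2. In the crossed group 6 of the 15 were higher and 1 lower than in R6/2 (4 to 7 and 0 to 1 with each of the 16 arrays left out). Slc17a7, the cortical vesicular glutamate transporter, named after its values were seen, read 8.01 to 8.42 in wild type and 7.95 to 8.57 in the crossed group and was 1.02 higher in the crossed group than in R6/2 (adjusted p = 0.000789). With the mean of this list as a covariate 3245 genes were called against wild type. Choroid plexus markers, with a mean of 10 genes from 7.93 to 8.48 in wild type and from 8.09 to 9.30 in the crossed group, had a median difference of 0.31. Of these 10, Kcne2 alone passed. Folr1 differed by 0.60 (95% interval -0.35 to 1.55) and Ttr, a major choroid plexus transcript named after its values were seen, by 0.11 (-0.28 to 0.50), neither of which passed. Crossed replicates 1 and 4, at 9.62 and 9.19, were the highest for Folr1 and, at 9.13 and 8.65, for Kcne2, and the part of choroid plexus tissue in the Kcne2 difference was not tested. None of the 6 sex-linked genes tested passed, in a fit whose spread for Xist includes the R6/2 array that stood apart.

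**Figure D5:**
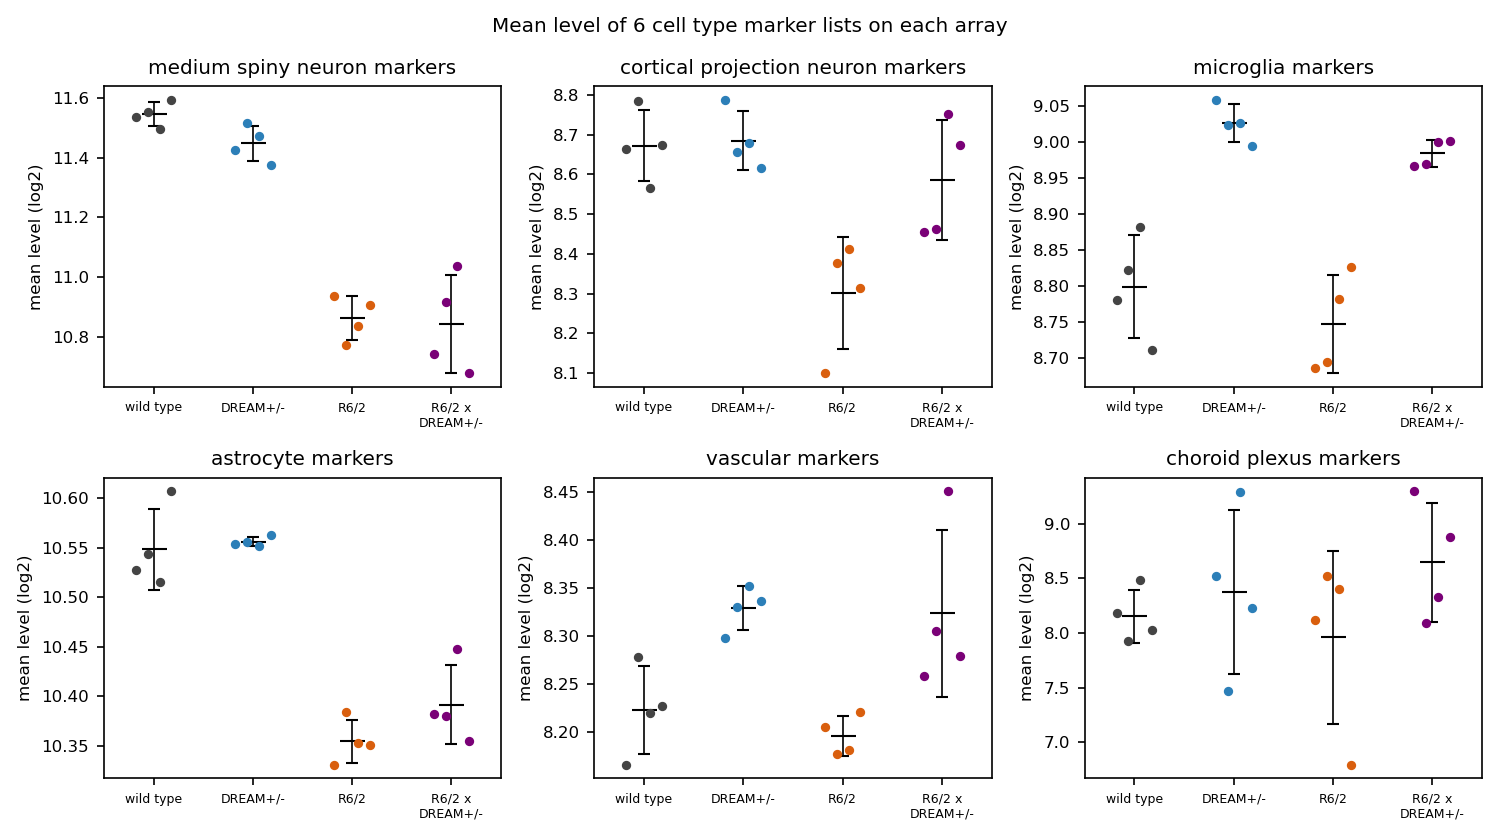
Mean level (log2) of 6 cell type marker lists on each of the 16 arrays, by genotype, with points for arrays and bars for the mean and SD (n = 4). Medium spiny neuron markers lie at 11.50 to 11.59 in wild type and 10.68 to 11.04 in the crossed group, and microglial markers at 8.71 to 8.88 and 8.97 to 9.002.

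The mean of the microglial markers ran from 8.97 to 9.002 on the crossed arrays, from 8.99 to 9.06 on the DREAM+/- arrays, from 8.71 to 8.88 in wild type and from 8.69 to 8.83 in R6/2. The crossed and wild-type ranges did not overlap for this mean or for that of the medium spiny neuron markers, and they overlapped for the cortical and choroid plexus means.

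Whether the crossed difference departed from the sum of the R6/2 and DREAM+/- differences was tested directly. No gene passed in that test (limma, 0 of 13011). An unadjusted p under 0.05 was reached by 898 genes, where that threshold alone admits 651. With single arrays left out of the other 2 groups, 1 gene passed without DREAM+/- replicate 4, 2 without R6/2 replicate 4 and none without the others. For Ppp1r1b the sum was -1.06 against the measured -1.06, for Npas4 -1.72 against -1.56, and for Kcnip3 -2.45 against -2.11. The measured fall was smaller than the sum for Egr2 (-2.51 against -3.56, adjusted p = 0.496), Fos (-0.73 against -1.69, adjusted p = 0.674) and Egr1 (-0.66 against -1.11, adjusted p = 0.550). The median departure of the 33 immediate early genes was 0.38, and none of them passed.

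Genes near Kcnip3 on chromosome 2 were examined because a bred-in knockout allele carries flanking sequence of its strain of origin. Of the 100 tested genes nearest Kcnip3, 50 on each side, 32 were called against wild type (32.0%, 16 higher and 16 lower), beside 26.7% of all genes. Their median absolute difference was 0.0975 and that of all genes 0.1075. In DREAM+/- against wild type 8 of the 100 were called, beside 3.68% of all genes. In R6/2 against wild type 34 of the 100 were called, beside 25.4% of all genes. Among the 20 nearest, 6 were called in the crossed group, 7 in R6/2 and 0 in DREAM+/-. Rbm45, Tmem87a and Rcn1, the other low genes on the chromosome, are not among the 100. Pdyn, Mal and B2m are among the 100 and also in the lists above. Whether the sequences of the strains differ at these probes was not tested.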

How the data were processed

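Total RNA of whole striatum was hybridised to 16 Affymetrix mouse expression arrays, 4 for each of 4 genotypes. The deposited log2 values cover 45101 probe sets, and the submitters' processing notes name RMA and affy, with no version given in the sources used here. RMA summarises the probes of a set on a log2 scale after quantile normalisation, so a shift shared by all genes is removed. The deposited values were not changed. For each gene the probe set with the highest mean was kept from the 34945 with 1 gene symbol, and the 13011 genes whose mean exceeded 5.944, the 40th percentile over probe sets, entered the test. Limma 3.58.1 in R 4.3.3 fitted 1 mean per genotype to all 16 arrays, with Benjamini-Hochberg adjustment over all genes and a threshold of 0.05. All adjusted p-values come from limma. The procedure was tested on simulated data. For the comparison with R6/2, each of the 16 arrays was also left out in turn, an alternative chosen after seeing the data.

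The genes named are Kcnip3, the 15 highest and 15 lowest called genes whose groups did not overlap, up to 5 members of each of 33 gene lists with the lowest p, and a fixed set. The comparison, the lists and the genes were chosen with earlier results of these data known. Promoter sequences came from RefSeq (GRCm38.p6), which matched 10482 of the genes tested.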

Additional observations from a re-analysis of the deposited data

Results flagged for a closer look

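In each group of 4 arrays, a value was singled out when it lay far from the other 3 for the spread of the group. Of 302 groups examined, 21 held such an array, and chance alone singles out about 1 group in 20. Crossed replicate 3 was the array in 9 of the 13 groups of crossed arrays singled out.

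On the second principal component that array lay at 3.40, with the others from 12.73 to 13.24. It was the lowest crossed array for Sox11 (8.56 against 10.06 to 10.25) and for Eif2s3y (6.23 against 7.34 to 7.42). It was the highest for Sfmbt2 (7.48 against 6.86 to 6.93), Olfml3 (9.31 against 9.11 to 9.14) and Rbm28 (10.25 against 10.13 to 10.15). For 3 lower genes it lay above the other crossed arrays and nearer wild type, namely Kcnh3 (9.21 against 8.63 to 8.71), Ngfr (6.96 against 6.68 to 6.69) and Grm4 (8.29 against 7.71 to 7.78).

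Other crossed arrays stood apart for single genes. Replicate 4 was lowest for Gpr6 (10.38 against 10.70 to 10.76) and Kcnip4 (9.28 against 9.41 to 9.42), replicate 1 for Drd1 (10.83 against 11.20 to 11.24) and replicate 2 for Mcl1 (10.23 against 10.38 to 10.41).

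Among wild-type arrays, replicate 4 was low for Npas4 (7.81 against 8.50 to 8.63) and high for Th (7.19 against 6.90 to 6.94) and for the mean of the oligodendrocyte markers (11.13 against 10.93 to 10.95). Replicate 3 was high for Trim30a (6.26 against 5.61 to 5.67), low for Npy (10.90 against 11.13 to 11.14) and 10.43 for Mbtps1, where the others read 10.40. Replicate 2 was high for Ifit3 (7.74 against 7.67 to 7.68) and low for Aqp4 (10.60 against 10.70 to 10.71).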

How the results depend on the processing

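Over 20 alternatives, the count of genes called left the range within 1.5 times of 3472 in 2 of them. The 8 arrays alone gave 2197 (903 higher and 1294 lower), a fit with fewer samples, and testing each probe set on its own gave 5454 (2483 higher and 2971 lower), a fit with more features. Leaving out each of the 8 crossed and wild-type arrays gave 2704 to 3981 genes called, 1184 to 1498 higher and 1520 to 2483 lower. Leaving out each of the 8 R6/2 and DREAM+/- arrays, chosen after seeing the data, gave 3272 to 3443 called, 1411 to 1501 higher and 1855 to 1942 lower. Replicate numbers did not pair the samples, since the correlations of same-numbered deviations were 0.219, -0.0956, -0.413 and -0.0631. With the replicate number as a block, 3450 genes were called (1517 higher and 1933 lower), 3285 of them shared with the fit without it. Averaging a gene's probe sets reversed Ddit3 (0.0088), Gabra4 (0.0213), Psma1 (-0.0388) and Cplx2 (0.01), and the cause was not tested. Of 163 named genes called, 129 kept the call under all alternatives that gave a value. The size of a difference could still move where the call was kept. It ran from -2.38 to -1.17 for Ryr1, -1.61 to -0.80 for Rcn1 and -1.10 to -0.55 for Rgs9. It ran from -1.19 to -0.59 for Gabrd and -0.585 to -0.199 for Kcnip1. Other genes moved away from 0, among them Homer1 (to -1.01), Pde10a (to -1.06) and Kcnip3 (to -2.62). Dim signal limits 31 genes called higher from a wild-type mean under the filter of 5.944 and 34 called lower to a crossed mean under it.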
